A study of Mus musculus with 15 samples.

Results

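The unfolded protein response and the integrated stress response were followed through 35 listed genes in the mouse macrophage line RAW264.7. A gene was measured by a probe set that carries its symbol and no other symbol, and where several did, the one with the highest mean over the 15 arrays was used. This gave 34 of the 35 genes, out of 22180 genes with such a probe set. Pdia4, which encodes a disulfide isomerase of the endoplasmic reticulum (ER), shares its probe set with the microRNA gene Mir704 and was not measured by this rule. Vldlr, a lipoprotein receptor gene, read between 2.84 and 3.30 on the log2 scale in all groups and lay at the 36.4th percentile of all probe sets on average, so it was not tested. The 33 genes left fall into 6 sensors and transcription factors, 14 ER chaperones and degradation genes, and 13 genes of the ATF4 branch.

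The cells fell into 5 groups of 3 arrays. 4 groups were activated with 1.0 µg/mL lipopolysaccharide (LPS), a component of bacterial outer membranes, after 30 min with 5.0 µM 13-HDHEA, with 5.0 µM 16-HDHEA, with 2.5 µM of each of them (the combined treatment) or with vehicle. The fifth group got vehicle and PBS in place of LPS. All groups contained 0.1% ethanol and were harvested after 24 h. 13-HDHEA and 16-HDHEA are ethanolamides of docosahexaenoic acid whose hydroxyl group sits on different carbons. The 3 replicates of a group come from 3 experiments, each of which holds 1 array of every group. Values of the arrays are given below in the order of experiments 1, 2 and 3.

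The unfolded protein response starts from 3 ER membrane proteins, encoded by Ern1 (IRE1), Eif2ak3 (PERK) and Atf6, which respond to unfolded protein in the ER lumen. IRE1 splices the messenger RNA of the transcription factor Xbp1, ATF6 is released from the membrane by proteolysis, and both then switch on chaperone and degradation genes. PERK phosphorylates the translation factor eIF2, as do the other kinases of the integrated stress response, and this slows general translation while the transcription factor ATF4 is translated more. ATF4 in turn drives genes of amino acid synthesis and transport and the transcription factor gene Ddit3 (CHOP). Splicing, cleavage, phosphorylation and translation are not read by a summarised probe set, so all values below are levels of RNA.

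The macrophage markers checked (Adgre1, Cd68, Csf1r, Itgam, Lyz2, Cd14, Fcgr1, Ptprc, Tyrobp and Spi1) lay above the array's own 40th percentile of all probe sets in all 15 arrays, 10 of 10. Of 5 lymphocyte markers none did so, and Cd3e, Cd3g and Ms4a1 were below it in every array. Among the macrophage markers, Adgre1 averaged 10.54 in LPS cells with vehicle and 6.04 without LPS, and Fcgr1 11.05 and 9.48. Itgam and Cd14 were also higher with LPS, and the other macrophage markers were lower. The 6 fibroblast markers summed to log2 values of 6.44 to 6.60 in LPS cells with vehicle, against 5.96 to 6.29 in cells without LPS. The largest difference among them was that of Pdgfra, which averaged 5.12 with LPS and 4.16 without it. Col1a1 averaged 4.05 and 3.78, and Dcn 3.20 and 3.03, while Col1a2, Col3a1 and Pdgfrb differed by less than 0.1. 3 of the 6 were above the 40th percentile in every array. The 8 epithelial and endothelial markers summed to 7.39 to 7.52 with LPS and 7.24 to 7.48 without it. Single markers went both ways. Cdh5 averaged 5.86 with LPS and 5.44 without it, Pecam1 5.05 and 4.68, and Vwf 3.88 and 4.38. Cdh1 was also higher with LPS, and Epcam, Krt8, Krt18 and Kdr were lower. 5 of the 8 were above the 40th percentile in every array. The part of these markers in the stress gene results was not tested. Fewer cells of a kind and less RNA per cell cannot be told apart in bulk RNA.

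LPS with vehicle was set against no LPS to ask how 24 h of activation changed the stress genes. 14 of the 33 genes rose and 1 fell, while 18 did not pass the test (limma, Benjamini-Hochberg adjusted p under 0.05 over all 15468 genes tested). In this comparison 29.8% of all genes tested were called, 13.5% higher and 16.3% lower. The ATF4 branch gave 8 of the 14 increases, with a median log2 difference of 0.35. The ER branch gave 4 and had a median of 0.22, and the sensors and transcription factors gave the other 2 and the single decrease, with a median of 0.13. The median over all genes tested was 0.000209. With the experiment as a block in the fit, 17 genes rose and 3 fell, against 15.6% and 18.7% of all genes in that fit. Values of the 3 LPS arrays lay entirely above or below those of the 3 arrays without LPS for 21 of the 33 genes, against 41.2% of all genes tested.

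**Figure D1:**
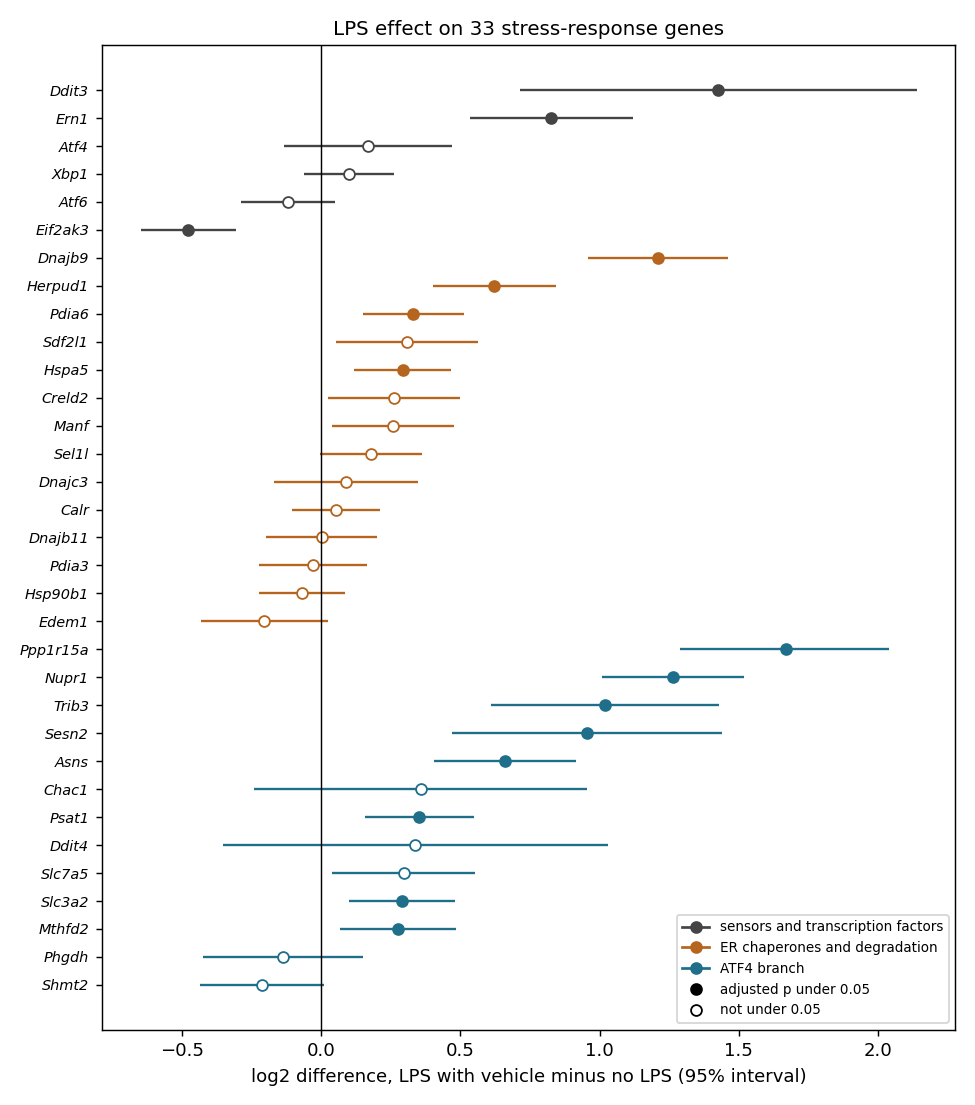
Log2 difference of LPS with vehicle minus no LPS for the 33 tested genes, by branch, with 95% intervals from limma; filled points mark an adjusted p under 0.05. The ATF4 branch runs from -0.21 for Shmt2 to 1.67 for Ppp1r15a, and Eif2ak3 is the one filled point below 0.

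Among the sensors and transcription factors, Ddit3 and Ern1 rose, Eif2ak3 fell, and Atf4, Atf6 and Xbp1 did not pass the test. Ddit3 encodes CHOP, a transcription factor that promotes cell death under lasting ER stress. Its log2 values were 7.82, 8.41 and 7.29 with 13-HDHEA, 8.09, 8.36 and 7.40 with 16-HDHEA, 8.17, 8.04 and 7.33 with both, 8.30, 8.43 and 7.55 in LPS cells with vehicle, and 6.35, 6.76 and 6.92 without LPS. All 12 LPS arrays were above the 3 arrays without LPS, and the array of experiment 3 was the lowest of each LPS group. The difference between LPS with vehicle and no LPS was 1.42 (SE 0.331, limma adjusted p = 0.00435), a fold of 2.68. By experiment it was 1.96, 1.68 and 0.64, so experiment 3 showed the smallest rise.

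Ern1, the IRE1 kinase and endoribonuclease, read 8.05, 8.03 and 7.70 with 13-HDHEA, 7.96, 7.88 and 7.73 with 16-HDHEA, 8.11, 7.87 and 7.68 with both, 8.04, 7.78 and 7.59 in LPS cells with vehicle, and 7.03, 6.98 and 6.93 without LPS. The groups with and without LPS did not overlap. Ern1 rose 1.77-fold with LPS (log2 difference 0.83, SE 0.136, limma adjusted p = 0.000311).

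Eif2ak3, which encodes the eIF2 kinase PERK, moved the other way. It read 7.24, 7.09 and 7.14 with 13-HDHEA, 7.09, 7.26 and 7.14 with 16-HDHEA, 7.28, 7.27 and 7.10 with both, 7.32, 7.28 and 7.18 in LPS cells with vehicle, and 7.75, 7.74 and 7.73 without LPS. Every LPS array was below every array without LPS, and the arrays without LPS lay within a few hundredths of each other. The log2 difference was -0.48 (SE 0.0793, limma adjusted p = 0.000327), a level 1.39-fold lower with LPS. Of the 33 genes it is the one that lay below in all 12 LPS arrays, as did 16.1% of all genes tested.

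Atf4 read 10.02, 10.15 and 10.02 in LPS cells with vehicle and 9.54, 10.07 and 10.07 without LPS. The array of experiment 1 without LPS was the lowest of all 15, and the groups overlapped (log2 difference 0.17, SE 0.14, limma adjusted p = 0.431). Xbp1, the transcription factor gene whose RNA is spliced by IRE1, read 9.57, 9.50 and 9.61 with LPS and 9.37, 9.48 and 9.52 without it, a difference of 0.10 (limma adjusted p = 0.379). Atf6 read 10.43, 10.45 and 10.36 with LPS and 10.48, 10.63 and 10.49 without it, a difference of -0.12 (limma adjusted p = 0.298). Their 95% intervals ran from -0.13 to 0.47 for Atf4, from -0.06 to 0.26 for Xbp1 and from -0.29 to 0.05 for Atf6. A change of a factor of 2, which is 1 on this scale, lies outside all 3 intervals.

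**Figure D2:**
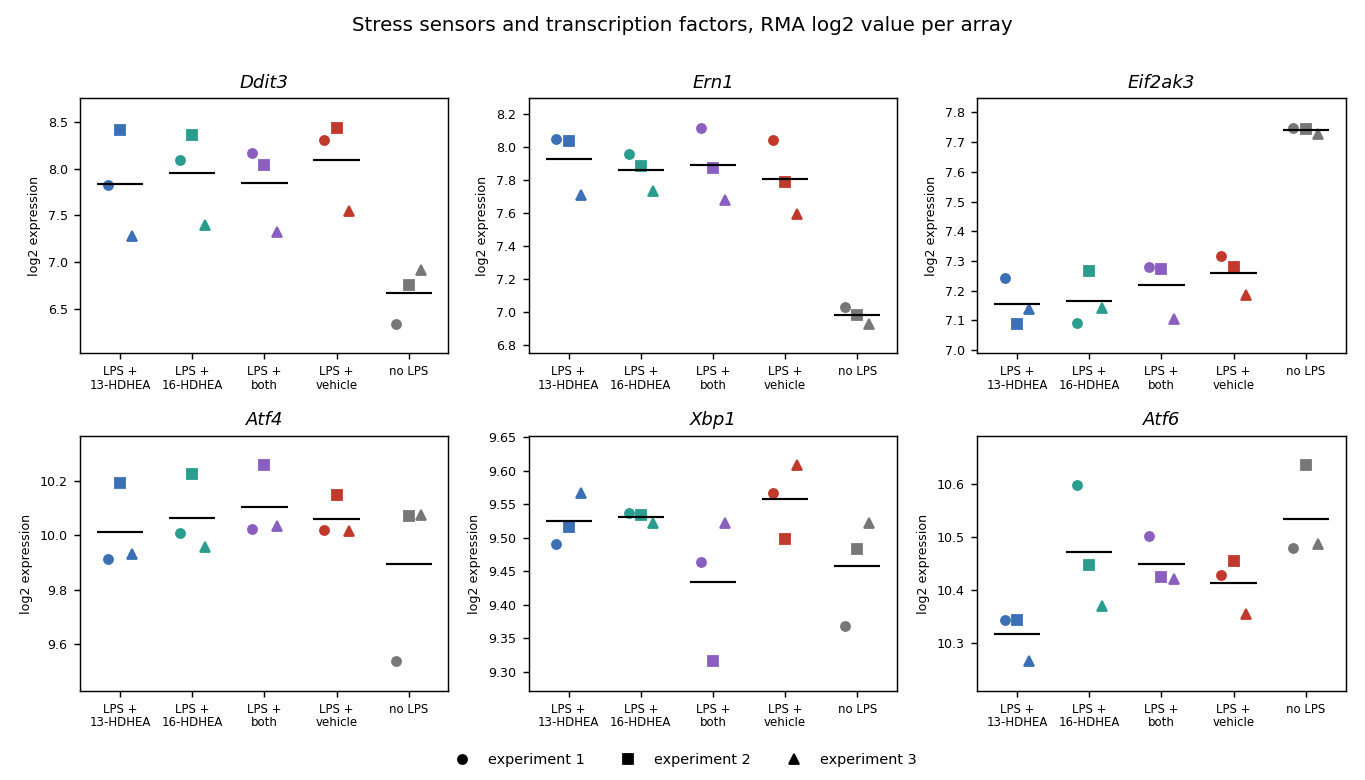
Log2 expression of the 6 sensor and transcription factor genes in each of the 15 arrays, with a horizontal bar at the group mean and a marker shape for each experiment; the vertical axes do not start at 0. Ddit3 and Ern1 are higher and Eif2ak3 lower in all 12 LPS arrays than in the 3 without LPS, while the groups of Atf4 and Xbp1 overlap.

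In the ER branch, Dnajb9, Herpud1, Pdia6 and Hspa5 rose with LPS and the other 10 tested genes did not pass. Dnajb9 encodes ERdj4, a co-chaperone of the ER chaperone BiP. It read 8.66, 8.64 and 8.68 with 13-HDHEA, 8.72, 8.68 and 8.68 with 16-HDHEA, 8.64, 8.73 and 8.84 with both, 8.94, 9.11 and 8.79 in LPS cells with vehicle, and 7.44, 7.86 and 7.91 without LPS. The highest array without LPS was still below the lowest LPS array. Dnajb9 rose 2.31-fold (log2 difference 1.21, SE 0.117, limma adjusted p = 2.41e-06), the largest change of this branch.

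Herpud1 encodes an ER membrane protein of the ubiquitin ligase complex that degrades misfolded ER proteins. It read 9.45, 9.49 and 9.47 with 13-HDHEA, 9.59, 9.59 and 9.48 with 16-HDHEA, 9.63, 9.54 and 9.42 with both, 9.83, 9.75 and 9.53 in LPS cells with vehicle, and 8.87, 9.16 and 9.22 without LPS. All LPS arrays were higher than the arrays without LPS. The rise was 1.54-fold (log2 difference 0.62, SE 0.103, limma adjusted p = 0.000316), and by experiment 0.95, 0.59 and 0.32.

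Hspa5 encodes BiP, the main Hsp70 chaperone of the ER lumen. It read 10.07, 10.15 and 10.10 with 13-HDHEA, 10.20, 10.20 and 10.12 with 16-HDHEA, 10.28, 10.12 and 10.07 with both, 10.32, 10.34 and 10.25 in LPS cells with vehicle, and 10.06, 10.10 and 9.87 without LPS. The vehicle and 16-HDHEA arrays with LPS did not overlap with the arrays without LPS, but arrays of the 13-HDHEA and combined groups did. Hspa5 rose 1.22-fold (log2 difference 0.29, SE 0.0812, limma adjusted p = 0.0135). The call was lost without the array of experiment 3 that had no LPS (0.22, limma adjusted p = 0.0667) and where the fit used only these 2 groups (limma adjusted p = 0.0593).

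Pdia6, a disulfide isomerase gene, read 11.14, 11.28 and 11.30 with LPS and vehicle and 11.01, 10.90 and 10.83 without LPS, and rose by 0.33 on the log2 scale (SE 0.0838, limma adjusted p = 0.00776). Sdf2l1, an ER protein that works with Hsp70 co-chaperones, Creld2 and Manf, both secreted or ER-resident stress proteins, had differences of 0.31, 0.26 and 0.26 with limma adjusted p of 0.0683, 0.0975 and 0.0767. Sel1l, a subunit of the degradation complex, had 0.18 (limma adjusted p = 0.147). Dnajc3, a BiP co-chaperone, the lectin chaperone gene Calr and the BiP co-chaperone gene Dnajb11 lay at 0.09, 0.05 and 0.00. Negative values were those of the disulfide isomerase gene Pdia3 (-0.03), of Hsp90b1, the Hsp90 of the ER (-0.07), and of Edem1, which helps to pass misfolded glycoproteins to degradation (-0.20, limma adjusted p = 0.181). Their limma adjusted p was 0.852, 0.53 and 0.181, and none of these 3 genes passed. With the experiment as a block, Sdf2l1 (limma adjusted p = 0.0185) and Sel1l (0.0385) passed as higher and Edem1 (0.0433) as lower. A dimmer probe set of Edem1, with a mean of 4.89 over all arrays against 10.15 for the one used, differed by -0.30.

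ER chaperone genes are known for the ER stress response element (ERSE), through which ATF6 and XBP1 act together with the factor NF-Y. Both strands of the stretch from 250 bases before to 50 bases after each gene's start were searched in RefSeq promoters (GRCm38.p6), which were available for 31 of the 34 genes. ERSE, spelled CCAAT, 9 free bases and CCACG, was found in 6 of the 13 ER-branch genes with a promoter and in 0.137% of 27025 genes in all (0.119% of 32851 promoters, since some genes have several). ERSE-II, spelled ATTGG, 1 free base and CCACG, was found in Dnajb11 and Herpud1 and in 0.0444% of all genes. UPRE, the XBP1 element spelled TGACGTGG, was in none of the 31 and in 0.714% of all genes, and no 2 matches printed here overlapped. The matches are printed below with 20 bases on either side, on the strand of the gene, to show which chaperone genes carry the element whether or not they moved with LPS. Capitals mark the fixed letters of the element, which read CGTGG and ATTGG where it lies on the opposite strand.
Hspa5 (chr2:34772005-34772063, plus strand): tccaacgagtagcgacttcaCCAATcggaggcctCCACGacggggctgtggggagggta
Pdia6 (chr12:17266471-17266529, plus strand): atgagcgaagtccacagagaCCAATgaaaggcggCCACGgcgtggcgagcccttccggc
Dnajc3 (chr14:118937807-118937865, plus strand): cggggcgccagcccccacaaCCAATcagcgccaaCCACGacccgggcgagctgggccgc
Calr (chr8:84847055-84847113, minus strand): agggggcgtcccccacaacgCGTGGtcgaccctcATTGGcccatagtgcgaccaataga
Creld2 (chr15:88819500-88819558, plus strand): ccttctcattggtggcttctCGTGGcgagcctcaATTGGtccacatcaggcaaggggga
Hsp90b1, further from the start (chr10:86705618-86705676, minus strand): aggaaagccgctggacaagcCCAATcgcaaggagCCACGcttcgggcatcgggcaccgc
Hsp90b1, nearer to the start (chr10:86705513-86705571, minus strand): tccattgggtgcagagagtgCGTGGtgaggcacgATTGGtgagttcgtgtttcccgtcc
Dnajb11, ERSE-II (chr16:22857832-22857882, plus strand): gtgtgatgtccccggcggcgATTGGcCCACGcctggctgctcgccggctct

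Of the 8 ER-branch genes with either form of the element, Hspa5, Pdia6 and Herpud1 rose with LPS and 5 did not pass. Hsp90b1, with 2 matches, differed by -0.07. Dnajb9, which rose most, had no match to any of the 4 spellings in its window. A match of letters is a description and not a site of binding.

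The promoter of Herpud1 held 2 kinds of element. It is printed whole because it is the only one of the 31 with both ERSE-II and the element of the ATF4 branch, which is spelled TGATGNAA and called CARE below. Capitals mark first the fixed letters of CARE, on the opposite strand, and then those of ERSE-II.
Herpud1 (chr8:94386179-94386478, plus strand): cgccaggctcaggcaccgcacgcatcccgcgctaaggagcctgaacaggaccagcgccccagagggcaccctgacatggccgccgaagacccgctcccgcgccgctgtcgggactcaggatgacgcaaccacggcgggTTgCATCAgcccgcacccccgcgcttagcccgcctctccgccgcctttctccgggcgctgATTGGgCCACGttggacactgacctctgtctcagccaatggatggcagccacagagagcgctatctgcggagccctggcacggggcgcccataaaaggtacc

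In the ATF4 branch, 8 of the 13 tested genes rose with LPS, 0 fell and 5 missed the threshold. Ppp1r15a encodes GADD34, which directs a phosphatase to eIF2 and so restores translation. It read 7.75, 7.65 and 7.57 with 13-HDHEA, 7.88, 7.70 and 7.37 with 16-HDHEA, 8.06, 7.74 and 7.35 with both, 8.08, 8.08 and 7.65 in LPS cells with vehicle, and 6.34, 6.15 and 6.31 without LPS. The groups with and without LPS did not overlap. Its rise of 3.18-fold (log2 difference 1.67, SE 0.174, limma adjusted p = 4.86e-06) was the largest of the 33 genes.

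Nupr1, a small stress-induced nuclear protein gene, read 8.51, 8.69 and 8.44 with 13-HDHEA, 8.72, 8.64 and 8.59 with 16-HDHEA, 8.73, 8.67 and 8.60 with both, 8.70, 8.82 and 8.55 in LPS cells with vehicle, and 7.15, 7.67 and 7.45 without LPS. It rose 2.40-fold (log2 difference 1.27, SE 0.12, limma adjusted p = 1.88e-06), the smallest adjusted p of the 33 genes. Each LPS array was higher than each array without LPS.

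Trib3 encodes a pseudokinase that binds ATF4 and the kinase AKT. It read 8.19, 8.23 and 8.01 with 13-HDHEA, 8.18, 8.32 and 7.99 with 16-HDHEA, 8.27, 7.89 and 7.94 with both, 8.28, 8.25 and 7.98 in LPS cells with vehicle, and 6.65, 7.60 and 7.19 without LPS. The arrays without LPS were spread over almost 1 log2 unit, and all lay below the LPS arrays. Trib3 rose 2.03-fold (log2 difference 1.02, SE 0.191, limma adjusted p = 0.000883).

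Sesn2 encodes a leucine-binding inhibitor of mTORC1 signalling. It read 8.69, 9.09 and 8.94 with 13-HDHEA, 8.75, 9.15 and 8.73 with 16-HDHEA, 8.88, 8.98 and 8.72 with both, 8.95, 9.01 and 8.80 in LPS cells with vehicle, and 7.28, 8.28 and 8.34 without LPS. The array of experiment 1 without LPS stood about 1 log2 unit under the other two. Sesn2 rose 1.94-fold (log2 difference 0.95, SE 0.225, limma adjusted p = 0.00475), and without that array the difference was 0.61 and was still called.

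Asns, the asparagine synthetase gene, read 10.56, 10.71 and 10.47 with 13-HDHEA, 10.70, 10.72 and 10.44 with 16-HDHEA, 10.68, 10.71 and 10.46 with both, 10.64, 10.69 and 10.45 in LPS cells with vehicle, and 9.79, 10.14 and 9.88 without LPS. The groups with and without LPS did not overlap. The rise was 1.58-fold (log2 difference 0.66, SE 0.119, limma adjusted p = 0.000648).

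**Figure D3:**
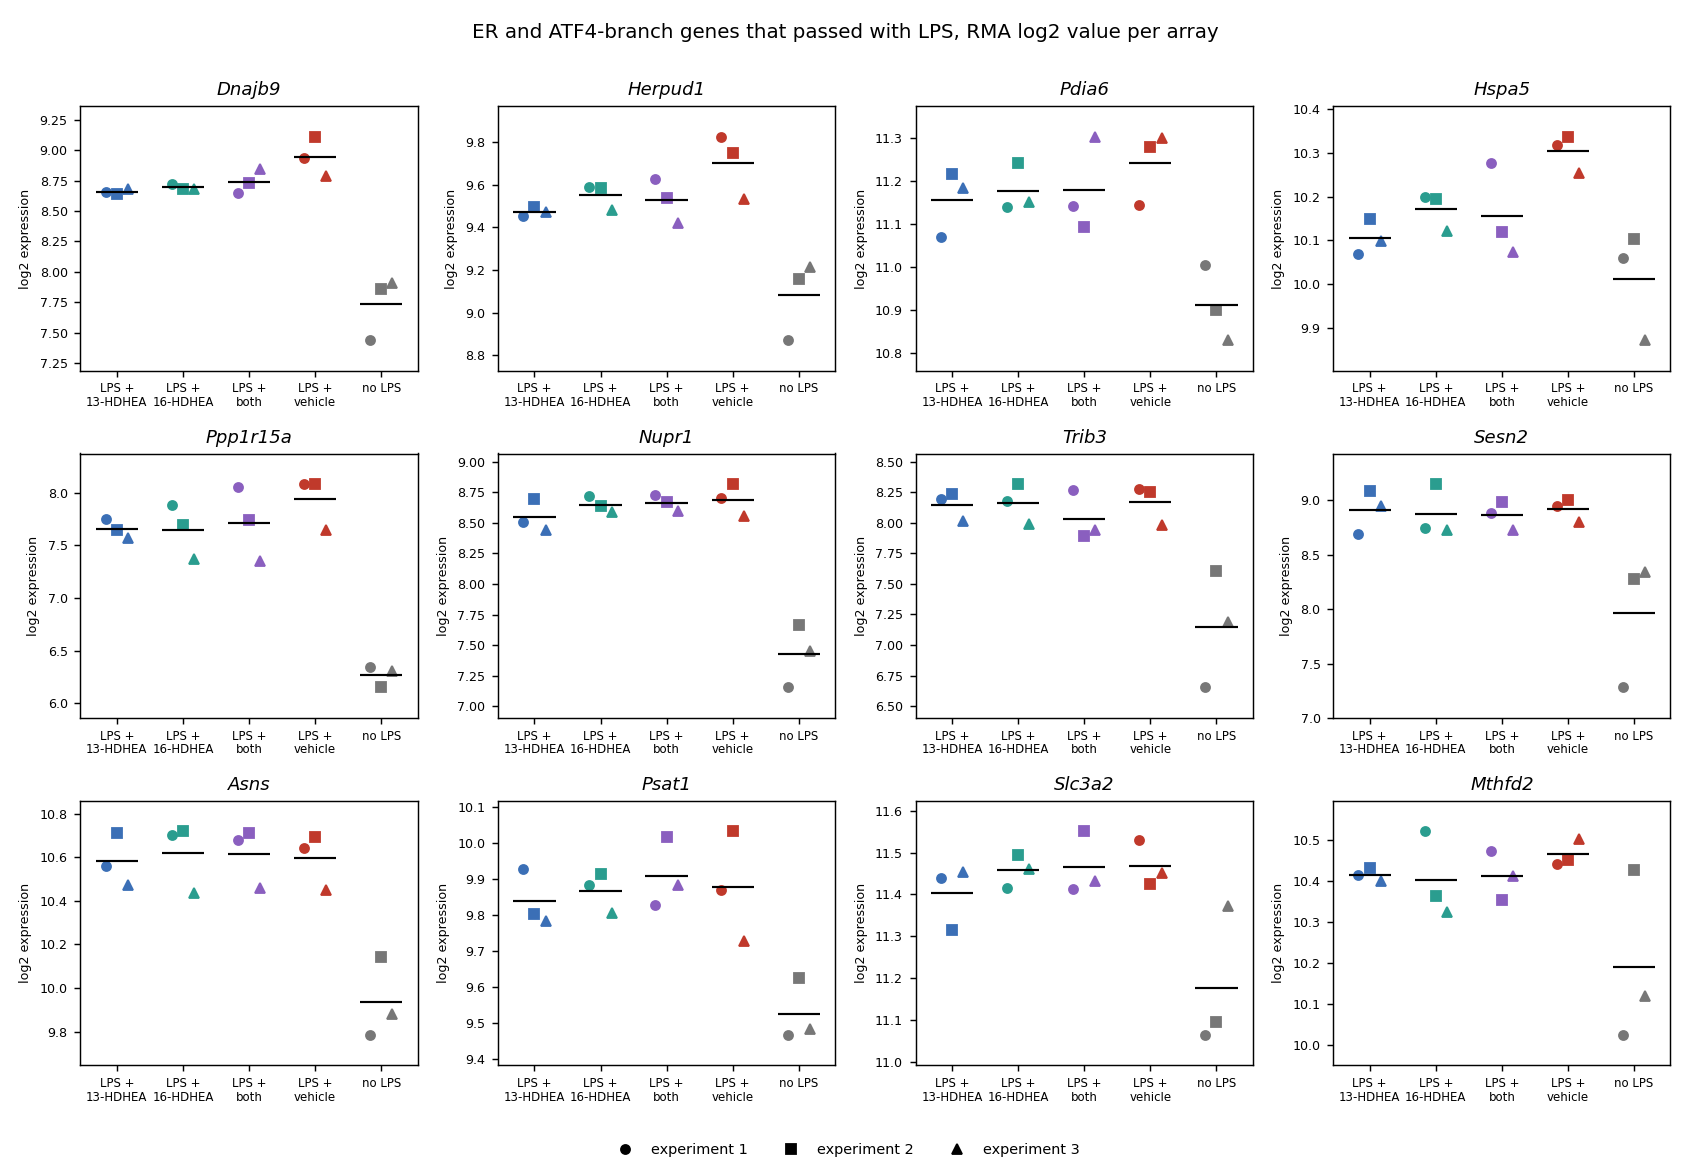
Log2 expression per array of the 12 ER and ATF4-branch genes that rose with LPS, with group means as bars and a marker shape for each experiment; the vertical axes do not start at 0. The 3 arrays without LPS lie below all 12 LPS arrays in 9 panels and overlap with some of them for Hspa5, Slc3a2 and Mthfd2.

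Smaller rises were those of the serine synthesis gene Psat1 (log2 difference 0.35, limma adjusted p = 0.00884), of Slc3a2, the heavy chain of amino acid transporters (0.29, limma adjusted p = 0.0223), and of the mitochondrial folate enzyme gene Mthfd2 (0.28, limma adjusted p = 0.0453). Slc3a2 was called in 18 of 23 alternative settings and Mthfd2 in 7 of 23. Slc3a2 was lost without the array of experiment 1 (limma adjusted p = 0.0937) or 2 (0.0842) that had no LPS, or without the LPS vehicle array of experiment 1 (0.0818). It was also lost with only the groups compared (limma adjusted p = 0.0895) and with quantile normalization repeated (0.0722). The amino acid transporter gene Slc7a5 had a difference of 0.30 (limma adjusted p = 0.0815), and passed with the experiment as a block (0.022). The enzymes next to Psat1 and Mthfd2 in serine and one-carbon metabolism had negative differences, with -0.14 for Phgdh (limma adjusted p = 0.502) and -0.21 for Shmt2 (limma adjusted p = 0.152), neither past the test. Phgdh was dim, between 3.28 and 3.86 in all arrays, and Shmt2 passed as lower with the block (limma adjusted p = 0.0289).

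Chac1 and Ddit4 varied widely between experiments. Chac1, which encodes a glutathione-degrading enzyme, read 5.98, 6.08 and 5.70 with LPS and vehicle and 4.85, 5.55 and 6.30 without LPS. By experiment its difference was 1.13, 0.53 and -0.59, so its sign was not the same in all 3 (mean 0.36, limma adjusted p = 0.396). Without the array of experiment 3 that had no LPS, the difference was 0.72 (limma adjusted p = 0.0332). Ddit4 (REDD1, an mTORC1 inhibitor) read 6.67, 7.06 and 6.07 with LPS and vehicle and 6.20, 6.53 and 6.06 without LPS, a difference of 0.34 (SE 0.321, limma adjusted p = 0.497).

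ATF4 binds the CARE element as a dimer with C/EBP proteins. The spelling TGATGNAA was found in 5 of the 13 ATF4-branch genes with a promoter and in Herpud1, against 4.51% of all genes (3.97% of promoters). Psat1 and Vldlr have 2 promoters each, and the match of Vldlr lies in its second. The windows are printed, as above, with 20 bases on either side and the fixed letters in capitals, since they include 3 of the 8 genes of this branch that rose. On the opposite strand the letters read TT, a free base and CATCA.
Asns (chr6:7693205-7693252, minus strand): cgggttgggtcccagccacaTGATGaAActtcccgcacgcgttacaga
Nupr1 (chr7:126625553-126625600, minus strand): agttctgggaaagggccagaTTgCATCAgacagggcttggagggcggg
Trib3 (chr2:152344019-152344066, minus strand): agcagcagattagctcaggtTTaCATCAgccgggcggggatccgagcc
Chac1 (chr2:119351029-119351076, plus strand): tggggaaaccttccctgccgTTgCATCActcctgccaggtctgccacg
Vldlr (chr19:27216800-27216847, plus strand): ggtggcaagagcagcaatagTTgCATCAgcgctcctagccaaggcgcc

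Of the 6 genes with this match, Herpud1, Trib3, Asns and Nupr1 rose with LPS, Chac1 did not pass and Vldlr was not tested. The other 5 genes of the ATF4 branch that rose, Ppp1r15a, Sesn2, Psat1, Slc3a2 and Mthfd2, had no match within these 300 bases, and neither did Ddit3.

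Without LPS the 2 branches differed in which experiment stood low, which is given as a description without a test. The array of experiment 1 was the lowest of the 3 for 10 of 13 ATF4-branch genes, against 31.7% of all genes tested. In the ER branch the array of experiment 3 was the lowest for 11 of 14 genes, against 35.0% of all genes. With LPS and vehicle, experiment 3 was lowest for 9 of 13 ATF4-branch genes and 6 of 14 ER genes, against 35.1% of all genes, and was the most frequent lowest in both. 10 of the 33 genes were lowest in experiment 3 in all 4 LPS groups (Atf6, Ddit3, Ern1, Sel1l, Edem1, Ppp1r15a, Asns, Nupr1, Ddit4 and Slc7a5), against 5.11% of all genes.

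The LPS difference within an experiment uses the same arrays, so it is no separate observation. With its sign, it was highest in experiment 1 for 8 of 13 ATF4-branch genes and 6 of 6 sensors and transcription factors, but in experiment 3 for 9 of 14 ER genes. Among all genes the shares were 33.5% for experiment 1 and 33.9% for experiment 3. For a gene with negative differences the highest value is the weakest decrease. This was so in experiment 1 for Eif2ak3 (-0.43, -0.46 and -0.54 by experiment) and Atf6 (-0.05, -0.18 and -0.13). The median difference of the ATF4 branch was 0.56, 0.53 and 0.29 in experiments 1, 2 and 3, and that of the ER branch was 0.13, 0.15 and 0.31. Without the array of experiment 1 that had no LPS, the median of the sensors and transcription factors was 0.0218, against 0.13 with all arrays. The same omission gave a median of 0.31 for the ATF4 branch, and the omission of experiment 3 without LPS gave 0.16 for the ER branch.

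**Figure D4:**
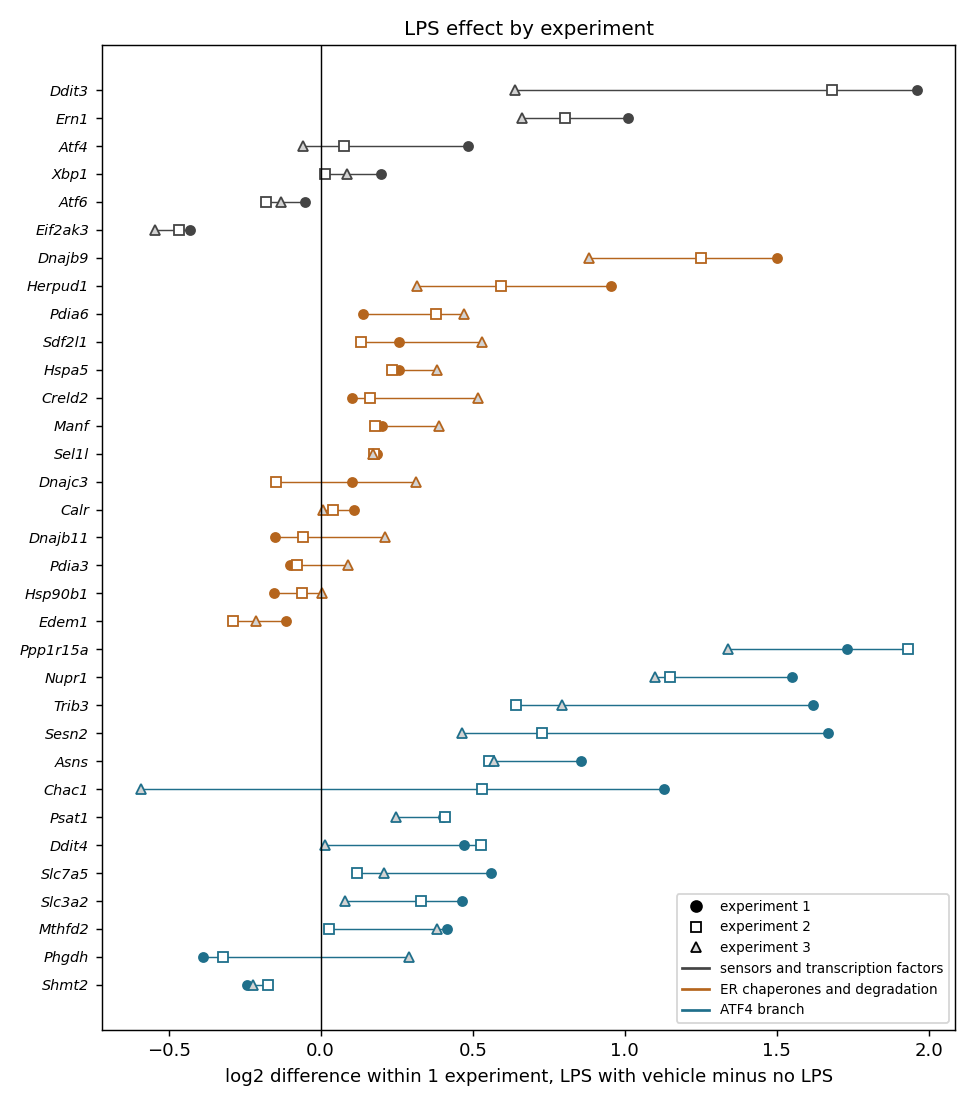
Log2 difference of LPS with vehicle minus no LPS within each of the 3 experiments, 1 point per gene and experiment, by branch. The ATF4 branch has medians of 0.56, 0.53 and 0.29 over experiments 1, 2 and 3, and the ER branch has medians of 0.13, 0.15 and 0.31.

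Across all 12 LPS arrays, HDHEA groups included, 11 of the 33 genes were above every array without LPS (Ddit3, Ern1, Dnajb9, Herpud1, Pdia6, Ppp1r15a, Trib3, Asns, Nupr1, Sesn2 and Psat1). Of all genes tested, 12.3% were. The other 21 stress genes overlapped, apart from Eif2ak3.

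Other genes of the same pathways were taken from 3 lists. Like the stress genes above, these lists were chosen with earlier results of these data known. Their counts against all genes are therefore a description and no separate test of the stress gene results. Of 36 further ER folding and degradation genes, 18 rose with LPS and 3 fell, with a median log2 difference of 0.26. Of all genes tested, 13.5% rose and 16.3% fell. The called genes with the smallest p were Creb3l2, an ER-membrane transcription factor (1.63), Sec24d, a coat protein of vesicles that leave the ER (0.98), and 2 parts of ER degradation, Selenos (1.08) and the ubiquitin ligase gene Syvn1 (0.66). Those that fell were Mbtps1, the protease that cleaves ATF6 (-0.30), the oxidase gene Ero1b (-0.27) and Uggt1, a glucosyltransferase that checks glycoprotein folding (-0.26). Ero1b and Uggt1 were called in 14 and 12 of 23 alternative settings.

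Of 29 tested genes of the amino acid response, 20 rose and 3 fell, with a median of 0.41, against 13.5% and 16.3% of all genes. Slc7a11, the cystine transporter, averaged 9.75 with LPS and 6.15 without it, a difference of 3.59 (limma adjusted p = 8.6e-08), and Cth, which makes cysteine from cystathionine, rose 5.03-fold (limma adjusted p = 4.5e-07). The AP-1 family gene Jdp2 rose by 1.57 and the small GTPase gene Rab32 by 1.02 on the log2 scale. Slc38a2, an amino acid transporter (-0.41), and Mars1, a methionyl-tRNA synthetase (-0.37), fell. Cbs, the enzyme before Cth, fell by 0.20 on the log2 scale at a dim level and held the call in 7 of 22 alternative settings.

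Of 12 genes of the eIF2 kinases and the eIF2 cycle, 4 rose and 1 fell, against 13.5% and 16.3% of all genes tested. Impact, an inhibitor of the eIF2 kinase GCN2, rose by 0.80 and Eif2b3, a subunit of the eIF2 exchange factor, by 0.59. The adaptor gene Nck1 rose by 0.55. The double-stranded RNA-activated eIF2 kinase gene Eif2ak2 rose by 0.26 (limma adjusted p = 0.0494) and the GCN2 gene Eif2ak4 fell by 0.27 (limma adjusted p = 0.0375). Those calls held in 8 and 13 of 23 alternative settings, and with the experiment as a block Eif2ak2 did not pass (limma adjusted p = 0.0559).

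The HDHEA treatments were set against vehicle in LPS-activated cells to ask whether they changed the stress genes. No gene of the 33 passed the test after 13-HDHEA, after 16-HDHEA or after the combined treatment (limma, adjusted p of 1 for each gene). Of all 15468 genes, 0.00646% were called after 13-HDHEA, 0% after 16-HDHEA and 0% after the combined treatment. At an unadjusted p under 0.05 there were 4, 0 and 0 stress genes, the 4 of them lower, against 660, 460 and 539 of all genes. All 3 comparisons share the same vehicle arrays. These arrays also stand for LPS in the comparison with no LPS. A high reading in them raises a gene's LPS difference and lowers its HDHEA differences, so these are not separate observations.

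The smallest p-values after 13-HDHEA were those of ER genes, whose arrays are given above. Hspa5 differed by -0.20 (95% interval -0.37 to -0.02, limma unadjusted p = 0.0291) and its 13-HDHEA arrays lay below its 3 vehicle arrays. Dnajb9 differed by -0.28 (interval -0.54 to -0.03, unadjusted p = 0.0295) and Herpud1 by -0.23 (interval -0.45 to -0.01, unadjusted p = 0.042), both without overlap. The fourth, Dnajc3, read 8.95, 9.09 and 9.25 with 13-HDHEA and 9.33, 9.24 and 9.52 with vehicle. These groups overlapped (-0.26, limma unadjusted p = 0.0454). Atf6 and Mthfd2 also had 13-HDHEA arrays entirely below their vehicle arrays, with differences of -0.10 and -0.05. The share of all genes without overlap was not counted for this comparison, so the lack of overlap is a description only.

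After 16-HDHEA the differences of the first 3 genes were -0.13, -0.25 and -0.15, and after the combined treatment -0.15, -0.20 and -0.17. Ppp1r15a, among the 3 smallest p after 16-HDHEA, differed by -0.29 (interval -0.66 to 0.09, limma unadjusted p = 0.122). The mean of the 3 HDHEA groups against vehicle gave -0.16 for Hspa5, -0.25 for Dnajb9 and -0.19 for Herpud1, with unadjusted p of 0.0319, 0.0223 and 0.0449. None of the 33 genes passed there after adjustment (limma adjusted p of 1), nor did any of all genes (0%). At a limma unadjusted p under 0.05 there were 3 of the 33 genes, against 586 of all 15468 genes.

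Differences of the ER branch were negative for 13 of 14 genes after 13-HDHEA (median -0.08), for 11 of 14 after 16-HDHEA (median -0.07) and for 13 of 14 after the combined treatment (median -0.08). The ATF4 branch had medians of -0.02, -0.00995 and -0.0036. Among all 15468 genes tested, 8311, 7775 and 7962 had negative differences in the same order of treatments. Over all genes tested the medians were -0.01, -0.000589 and -0.00379. These medians and counts of signs rest on the same 3 vehicle arrays and do not stand for 3 separate observations.

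**Figure D5:**
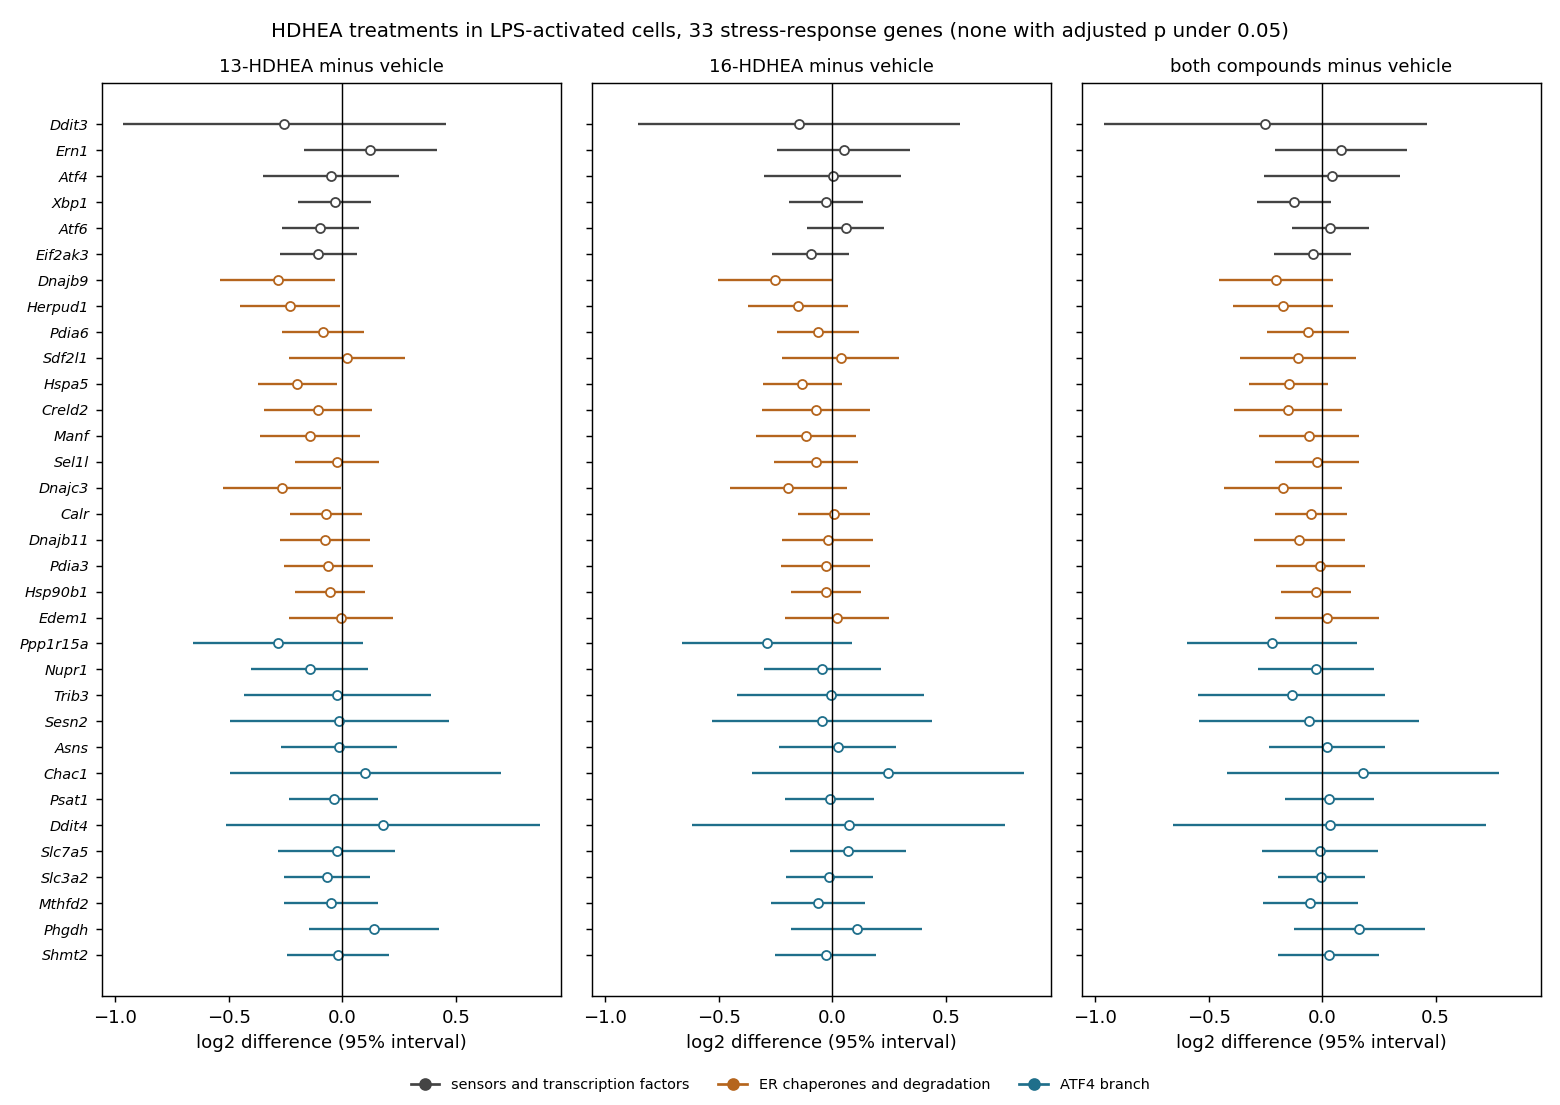
Log2 difference of each HDHEA treatment minus vehicle in LPS-activated cells for the 33 tested genes, with 95% intervals from limma. No gene has an adjusted p under 0.05, and each interval lies within 1 log2 unit of 0.

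The 95% interval lay within 0.5 log2 units of 0 for 27 of the 33 genes in each of the 3 comparisons with vehicle, and within 1 unit for all 33. Those outside 0.5 after 13-HDHEA were Ddit3, Dnajb9, Dnajc3, Ppp1r15a, Chac1 and Ddit4.

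The isomers were compared with each other at 5.0 µM. No stress gene passed the test (limma adjusted p of 1 for all 33), while 0.00646% of all genes were called, and no stress gene had an unadjusted p under 0.05, against 480 of all genes. The smallest p was that of Atf6, which read 10.34, 10.34 and 10.27 with 13-HDHEA and 10.60, 10.45 and 10.37 with 16-HDHEA. These arrays did not overlap, and the difference was -0.15 (interval -0.32 to 0.02, limma unadjusted p = 0.0708). The share of all genes without overlap between the isomers was not counted. The interval lay within 0.5 log2 units of 0 for 29 of 33 genes, the others being Ddit3, Chac1, Sesn2 and Ddit4. A missed threshold does not show that the isomers act alike.

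The combined treatment, with each isomer at 2.5 µM, gave no call against the mean of the single treatments (limma adjusted p of 1 for all 33, 0% of all genes called, none of the 33 and 496 of all genes at an unadjusted p under 0.05). The smallest p was that of Xbp1, which read 9.46, 9.32 and 9.52 with both compounds, 9.49, 9.52 and 9.57 with 13-HDHEA and 9.54, 9.53 and 9.52 with 16-HDHEA (difference -0.09, limma unadjusted p = 0.169). The lists of further ER, amino acid response and eIF2 genes also had no gene called in any of the 6 HDHEA comparisons (lowest limma adjusted p of 1), and had at most 2 genes of a list at an unadjusted p under 0.05.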

How the data were processed

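RNA was measured on Affymetrix arrays from target made with a whole-transcript sense assay, per the labels' protocols. Per the submitters' processing notes the authors made the deposited log2 values, 1 per probe set, with RMA. Neither its version nor the probe grouping is stated there. RMA makes arrays alike in distribution, which hides any shift that most genes share, and it compresses changes of dim probe sets. Array medians lay between 3.62 and 3.69.

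Of 41345 probe sets, 23521 had 1 gene symbol, 1814 had several and 16010 were not listed in the platform's gene table. A gene was tested where it exceeded the array's own 40th percentile (3.16 to 3.22) in at least 3 arrays. limma 3.58.1 in R 4.3.3 (lmFit, eBayes) was fitted to group means over all 15 arrays, with 10 residual degrees of freedom. The test is two-sided, with Benjamini-Hochberg adjustment over 15468 genes. Differences are the first group minus the second, and the number of arrays limits their precision.

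The members and lists were chosen with earlier results of these data known. Genes shown per array were the sensors and transcription factors and the members called with a difference of at least 0.5. In the HDHEA comparisons with vehicle, the genes with the 3 smallest p were named. Between the isomers, and for the combined treatment against the single ones, only the gene with the smallest p was given. In the lists, up to 4 called genes a direction with the smallest p were named. Hspa5, Pdia6, Chac1, Ddit4 and Dnajc3 were added after their values were seen.

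Arrays with one replicate number share an experiment identifier in the labels. Their deviations from group means correlated from 0.0835 to 0.404 over 30 pairs, and all 15 arrays correlated best with their own number. The fit without a block is reported unless stated. Alternatives were the block, only the groups compared, other filters, array centring, repeated quantile normalization, the mean of all probe sets, an intensity trend with robust fit, and each array left out. The fit was tested on simulated data. With 100 genes changed by 0.5 log2 units, it recovered 53%, 42% and 45% of them for 13-HDHEA, 16-HDHEA and the combined treatment against vehicle. For changes of 1 unit it recovered 91%, 85% and 94%. Figures were drawn with matplotlib 3.10.9.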

Additional observations from a re-analysis of the deposited data

How the results depend on the processing

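Of the 15 stress genes called with LPS, 12 stayed called under all 23 alternatives, the exceptions being Hspa5, Slc3a2 and Mthfd2. With the replicate block, calls of lower level numbered 3 over all stress genes, 1 in the ER branch and 1 in the ATF4 branch, against 1, 0 and 0 without it, and no HDHEA call was added. With arrays centred on their medians, the median LPS difference of all genes was 0.0589 and their calls split into 2534 higher and 2082 lower, against 2089 and 2527. The stress genes then had a median of 0.35, and 7 ER genes rose. The further ER genes that fell, 3 in the fit reported, numbered 1 with this centring and 1 with no filter on low values. The eIF2 gene that fell was lost (0) with this centring, with no filter, with only the groups compared and with quantile normalization repeated. Leaving out 1 array at a time, the further ER genes that fell numbered 0 to 4, the eIF2 genes that rose 2 to 4 and those that fell 0 to 1. The median of the stress genes then ran from -0.0746 to -0.053 for 13-HDHEA, from -0.0488 to -0.00576 for 16-HDHEA and from -0.0596 to 0.00629 for the combined treatment, each against vehicle. It ran from -0.0583 to -0.0335 for all HDHEA groups against vehicle and from -0.0268 to 0.0494 for the combined treatment against the single ones. The cause of these shifts was not tested. No stress gene was called in any HDHEA comparison under any alternative, with a lowest limma adjusted p of 0.763.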
